A study of Mus musculus with 8 samples.

Results

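Ereg, Fosl1, Junb, Maff, Ier3 and Myc are an EGF receptor ligand and 5 growth or stress-induced genes, of which 4 encode transcription factors. They were measured in newborn mouse epidermis by 7 probe sets, 2 for Fosl1 and 1 for each other gene, out of 45101 on the array. They are 6 of the 1395 genes that the authors' deposited comparison table names by a single symbol. The members are all probe sets to which that table gives exactly one of these 6 symbols. That table lists only probe sets that differed on these same arrays, with an absolute fold of at least 1.5 and an unadjusted p of at most 0.0499. The selection therefore fixed that every member differed, and a test of the same contrast is a description of the members and no independent support. Probe sets of these genes outside the table have no name here and were not used.

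The series holds 8 Affymetrix Mouse 430 2.0 arrays of epidermis separated from the dermis of newborn mice. The knockout samples are 4 biological replicates called dKO, with the genotype IR-/-, IGF-1R-/-, a double null of the receptors for insulin and IGF-1. They were set against 4 biological replicates titled ctrl, with the genotype wild type, here called controls. The strain is given as C57Bl/6 for both groups, and the age only as newborn. How the receptor genes were deleted, in which cells, and whether a replicate is 1 animal or a pool is not stated in the sources at hand, and p-values therefore measure the spread between these samples. The median signal per array was 40.7 to 47.4 units in dKO and 46.4 to 51.7 units in controls. The log2 ratio of the 3 prime to the 5 prime Actb control probe set, a sign of RNA quality, was 0.372 to 0.586 in dKO and 0.512 to 0.767 in controls, and for Gapdh it was -0.479 to -0.430 in dKO and -0.546 to -0.270 in controls. The part of these readings in the results was not tested. Insr, the gene of the insulin receptor, averaged 72.8 units in dKO against 254 in controls (log2 difference -1.79, SE 0.23, limma adjusted p = 0.00319). For Igf1r the brightest of its probe sets differed by -0.76 (SE 0.14, limma adjusted p = 0.0176).

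Epiregulin and related ligands are made as membrane-anchored precursors, are released by proteases and activate receptors of the EGF receptor family on the same or a neighbouring keratinocyte. Signals from these receptors pass through the ERK pathway and switch on immediate early genes, whose transcription needs no new protein. Among them are genes of AP-1, a dimer of a Fos and a Jun protein that binds DNA through a basic leucine zipper, and Myc, a driver of cell growth. In epidermis these genes are known from wounding, inflammation and the control of keratinocyte growth and differentiation.

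In dKO epidermis the signals of all 7 probe sets were higher than in controls, in 2 ranges of size. Ereg was higher by 14.1-fold and Fosl1 by 11.2-fold and 8.14-fold in its 2 probe sets, and Junb, Maff, Ier3 and Myc by 2.06-fold to 2.17-fold (n = 4 per group). On 6 of the 7 probe sets every dKO array lay above every control, and on Junb the groups overlapped (over all tested probe sets, the groups did not overlap in 9.37%). In limma, which tested 45032 probe sets together, 7 of the 7 passed a Benjamini-Hochberg adjusted p of 0.05 as higher in dKO. Over all tested probe sets this was so for 0.993%, and every dKO array lay above every control for 3.44%. Since the selection used this contrast, nothing is read from the distance of the members to that background. Of the 1802 probe sets with 1 symbol in the authors' table, selected in the same way, 20.0% passed as higher in dKO. The median log2 difference, dKO minus control, was -0.07 over all tested probe sets.

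**Figure D1:**
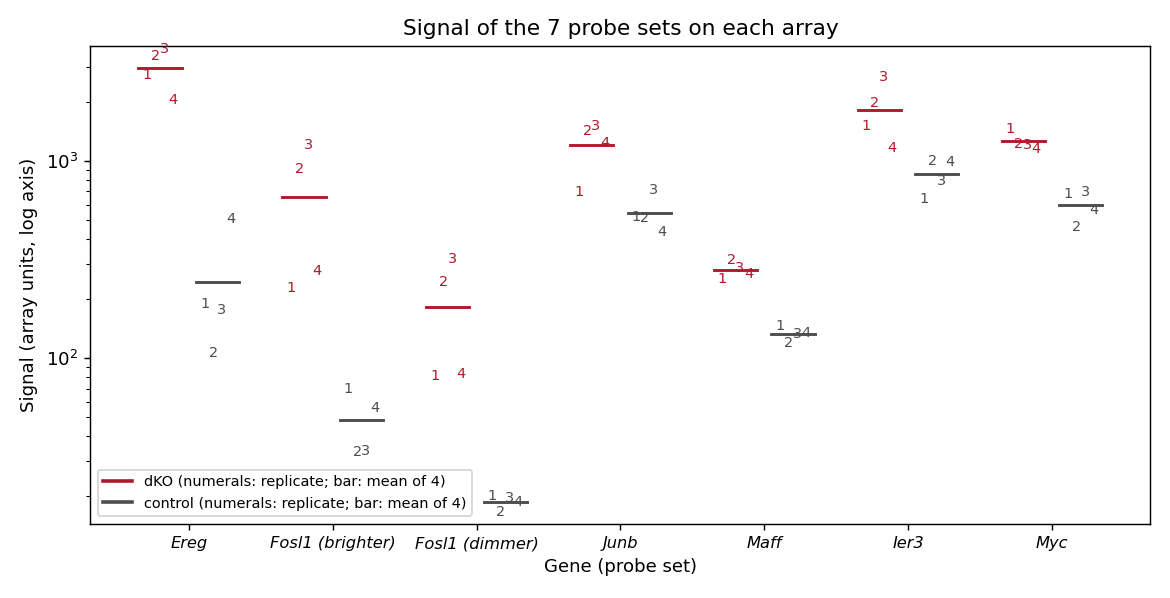
Signal of each of the 7 probe sets (array units, log axis) on the 4 dKO arrays (red) and the 4 control arrays (grey); numerals are replicate numbers and bars are group means. The Ereg signals lie between 2029 and 3712 in dKO and between 106 and 510 in controls, while for Junb dKO replicate 1 (691.8) lies under control replicate 3 (711.4).

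The gene starts of 3 of the 6 genes were matched to RefSeq sequences of the build GRCm38.p6, in 5 windows, and the 250 bases before each start were searched for 7 motifs on both strands. Those of Junb, of Ier3 and of the second of 3 Maff starts are shown. These were the 3 genes with a window, and of the 3 Maff windows the second held the most motif matches. Capitals mark the motif matches. The Junb window lies on the minus strand at chr8:84978749-84978998, that of Maff on the plus strand at chr15:79347270-79347519 and that of Ier3 on the plus strand at chr17:35821463-35821712.
Junb: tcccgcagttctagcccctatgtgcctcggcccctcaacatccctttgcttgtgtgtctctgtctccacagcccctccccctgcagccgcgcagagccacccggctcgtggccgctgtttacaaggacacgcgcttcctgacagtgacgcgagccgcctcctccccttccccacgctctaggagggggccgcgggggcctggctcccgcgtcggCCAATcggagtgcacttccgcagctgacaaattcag
Maff: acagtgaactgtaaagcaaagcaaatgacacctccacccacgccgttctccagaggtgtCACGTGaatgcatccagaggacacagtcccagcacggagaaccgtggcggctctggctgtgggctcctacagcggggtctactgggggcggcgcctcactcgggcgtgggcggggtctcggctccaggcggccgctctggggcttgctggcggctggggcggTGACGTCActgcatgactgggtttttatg
Ier3: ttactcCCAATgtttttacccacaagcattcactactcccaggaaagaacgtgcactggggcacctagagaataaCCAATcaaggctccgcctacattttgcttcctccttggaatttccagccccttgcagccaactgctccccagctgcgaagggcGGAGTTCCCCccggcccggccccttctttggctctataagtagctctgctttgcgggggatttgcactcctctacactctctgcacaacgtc
The motif of AP-1 (TGANTCA) was in 0 of the 5 windows, where 6.75% of 32851 windows of the same length in the mouse table hold it. The cyclic AMP response element (TGACGTCA) was in 1 window, the second of Maff, 29 to 22 bases before the start, and 1.55% of all windows hold it. That Maff window also held an E-box (CACGTG), the motif that Myc with its partner Max is known to bind, 191 to 186 bases before the start (6.02% of all windows). The CCAAT box (CCAAT) was in the Junb window and at 2 places in that of Ier3, and 33.8% of all windows hold it. A match to the motif of NF-kB was in the Ier3 window, 92 to 83 bases before the start, and in the third Maff window (8.87% of all windows). The TATA box (TATAAA) and the CArG box of serum response factor were in 0 of the 5 windows (12.4% and 1.47% of all windows). No 2 of these motifs overlapped at a match. These are matches of letters in short windows, and binding was not measured.

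Ereg, the ligand, had the largest difference of the 6 genes. Its gene lies on chromosome 5 of GRCm38.p6, from 91074617 to 91093649. Probe set 1419431_at read 2728, 3412, 3712 and 2029 units in dKO replicates 1 to 4, against 187.1, 106, 174.3 and 510 units in control replicates 1 to 4. The lowest dKO array was 3.98 times the highest control, and the control values spread over 4.81-fold, more than the 1.83-fold of dKO. Ereg averaged 2970 ± 751 units in dKO against 244 ± 181 units for controls (SD, n = 4 each), and the log2 difference was 3.82 (SE 0.37, adjusted p = 0.000534, limma). Control replicate 4 held the highest control reading, and dKO replicate 4 the lowest dKO reading. Without both of these arrays the log2 difference was 4.43 (limma adjusted p = 3.74e-06), a comparison chosen after the data had been seen. Leaving out the highest control and the lowest dKO array could only enlarge the difference. Ereg passed in each of the 8 fits that left out 1 array (3.50 to 4.26 on the log2 scale). In the authors' deposited table the ratio of dKO to control was 13.4 (unadjusted p = 0.000515 there), rank 16 of the 873 listed as higher.

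Other ligands of the family were listed in the same table. Of 11 ligand genes on the list used here 6 had a name, Ereg among them, and the 5 others rose, against 0.993% of all tested probe sets and 20.0% of those with 1 symbol in the table. With Ereg the median log2 difference of the 6 was 2.96. Areg, amphiregulin, read 287.3, 725.5, 860.9 and 355 units in dKO and 66.4, 40.6, 27.9 and 131.1 in controls, and rose by 3.16 (SE 0.45, limma adjusted p = 0.00452). Epgn, epigen, rose by 3.06 (SE 0.42) and Hbegf, heparin-binding EGF-like growth factor, by 2.61 (SE 0.36), with limma adjusted p of 0.00403 and 0.0043. These 3 bind the EGF receptor, as Ereg does. Epgn, Ereg and Areg lie next to each other on chromosome 5 of GRCm38.p6, within 121 kb (91027517 to 91148432), with 1 other annotated gene in that stretch, the lncRNA gene Gm19610, whose span overlaps an end of Ereg.

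Nrg1, a neuregulin that binds ERBB3 and ERBB4, rose by 2.86 (SE 0.49, limma adjusted p = 0.0111). It was dim, at 75.5 ± 42.9 units in dKO against 9.72 ± 3.05 units for controls (SD, n = 4 each), and with 32 units added to each signal the difference was 1.29. Tgfa, transforming growth factor alpha, rose by 1.08 in its brighter probe set (SE 0.21, limma adjusted p = 0.0195), and its dimmer probe set differed by 0.88 and did not pass (limma adjusted p = 0.351). For Areg the difference with 32 added was 2.56. The call of Nrg1 ended once dKO replicate 3 was left out (limma adjusted p = 0.0551). The call of Tgfa ended once control replicate 1, 2 or 3 was left out (limma adjusted p up to 0.071). Of the 4 receptor genes Egfr, Erbb2, Erbb3 and Erbb4, 0 were named in the table, and no level is given for them.

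Genes that release the ligands or dampen the receptor were mostly unnamed, with 3 of 17 named. Errfi1, a feedback inhibitor of the EGF receptor, rose by 0.89 (SE 0.14, limma adjusted p = 0.00777), and in its other probe set by 1.05 (limma adjusted p = 0.0223). Dusp6, a phosphatase that switches off ERK, read 1483, 4460, 5078 and 3121 units in dKO and 1280, 1031, 1108 and 993.7 in controls. All dKO arrays lay above all controls, though dKO replicate 1 by little. Dusp6 rose by 1.54 (SE 0.30, limma adjusted p = 0.0195), and this call was lost when any of dKO replicates 2 and 3 and control replicates 1, 2 and 3 was left out (limma adjusted p up to 0.0685). It also ended with robust estimation of the variance and without both arrays numbered 4 (limma adjusted p = 0.065 and 0.0521). Lrig1, which lowers EGF receptor levels and marks epidermal stem cells, differed by -0.53 (SE 0.18, limma adjusted p = 0.162) and did not pass, though it passed without dKO replicate 4 (-0.69, limma adjusted p = 0.0356).

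Fosl1 encodes Fra-1, a Fos family subunit of AP-1 without the transactivation domain of Fos. The gene lies on chromosome 19 of GRCm38.p6, from 5447698 to 5455938. Its brighter probe set, 1417487_at, read 227.7, 911.2, 1207 and 274.9 units in dKO, against 70, 33.3, 33.9 and 55.8 units in controls. The dimmer one, 1417488_at, read 81.2, 243.4, 319.6 and 83 units in dKO and 19.9, 16.5, 19.6 and 18.6 units in controls. Both put dKO replicates 2 and 3 far above dKO replicates 1 and 4, and both kept all dKO arrays above all controls. Within dKO the highest array was 5.30 times the lowest in the brighter probe set and 3.94 times in the dimmer one.

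The brighter Fosl1 probe set averaged 655 ± 482 units in dKO against 48.2 ± 17.9 units for controls (SD, n = 4 each), which is 3.48 on the log2 scale (SE 0.48, limma adjusted p = 0.00411). The dimmer Fosl1 probe set differed by 3.02 (SE 0.43, limma adjusted p = 0.00466). Both passed without any single array, at 3.07 to 3.87 and 2.66 to 3.32 on the log2 scale. The controls were dim, and 32 units added to each signal left differences of 2.81 and 1.90. The brighter probe set read 2.80 to 3.78 times the dimmer one on the dKO arrays and 1.73 to 3.52 times on the controls. The authors' deposited table gives ratios of 8.50 and 5.92, against 11.2 and 8.14 as folds of the mean log2 signals here.

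Junb, a Jun family partner of Fos proteins in AP-1, had the weakest separation of the groups. The gene spans 1840 bases of chromosome 8 in GRCm38.p6, from 84976909 to 84978748. Probe set 1415899_at read 691.8, 1417, 1496.5 and 1235 units in dKO, against 516.3, 512.7, 711.4 and 433.7 units in controls. Control replicate 3 lay above dKO replicate 1, and the other 3 dKO arrays above all controls. Junb averaged 1210 ± 362 units in dKO against 544 ± 118 units for controls (SD, n = 4 each) and rose by 1.12 on the log2 scale (SE 0.23, limma adjusted p = 0.0244). The Junb call was lost when any of dKO replicates 2 and 3 and control replicates 1, 2 and 4 was left out (limma adjusted p up to 0.0853), and without both arrays numbered 4 (limma adjusted p = 0.0724). Without dKO replicate 1 the difference was 1.37 (limma adjusted p = 0.0015). Of the 12 AP-1 family genes on the list, Fosl1 and Junb were the 2 with a name, so nothing is shown here on Fos, Jun or the other subunits.

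Maff is a small Maf protein, a basic leucine zipper factor without a transactivation domain that pairs with proteins such as Nfe2l2 and Bach1. The gene lies on chromosome 15 of GRCm38.p6, from 79346621 to 79359078. Probe set 1418936_at read 252.7, 314.7, 286.5 and 266.2 units in dKO, against 145.9, 118.6, 132.4 and 133.9 units in controls. Both groups were tight, with a highest array 1.25 times the lowest in dKO and 1.23 times in controls. Maff averaged 280 ± 27.0 units in dKO against 133 ± 11.2 units for controls (SD, n = 4 each) and rose by 1.08 (SE 0.14, limma adjusted p = 0.00342). It passed without any single array, at 1.02 to 1.12.

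Of the 13 Maf family genes and partners on the list, 4 were named. Nfe2l2, or Nrf2, which drives antioxidant genes, rose by 1.33 (SE 0.28, limma adjusted p = 0.0307), and Bach1, a repressor at the same DNA elements, by 0.85 (SE 0.13, limma adjusted p = 0.00556). Nfe2l2 was dim in controls, at 45.5 to 112.9 units, and with 32 units added it rose by 0.99. Nfe2, the partner of small Maf proteins in blood cells, fell by 2.54 (SE 0.59, limma adjusted p = 0.0444). Nfe2 read 34.7 ± 28.0 units in dKO against 150 ± 52.8 units for controls (SD, n = 4 each), and with 32 units added it fell by 1.51. Bach1 passed without any single array. Among fits with 1 array left out, Nfe2l2 passed in 1, the fit without control replicate 4, and Nfe2 in 2, those without dKO replicate 2 or 4 (limma adjusted p up to 0.0926 and 0.138 in the others). Without both arrays numbered 4 the Nfe2 difference was -3.16. Those arrays were its lowest control and its highest dKO array, so leaving them out had to enlarge the fall. The Nfe2 call ended with quantile normalization, with robust estimation and with the replicate number as a block (limma adjusted p = 0.0551, 0.063 and 0.0627).

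Ier3, also called IEX-1, is a short stress-induced gene linked to cell survival. It spans 1199 bases of chromosome 17 in GRCm38.p6, from 35821713 to 35822911. Probe set 1419647_a_at read 1502, 1970, 2652 and 1161 units in dKO, against 641.7, 996.8, 795 and 988.1 units in controls. All dKO arrays lay above all controls, but the lowest dKO array was only 1.17 times the highest control. Ier3 averaged 1821 ± 645 units in dKO against 855 ± 170 units for controls (SD, n = 4 each) and rose by 1.05 (SE 0.22, limma adjusted p = 0.0329). The Ier3 call was lost when any of dKO replicates 2 and 3 and control replicates 1, 2 and 3 was left out (limma adjusted p up to 0.117).

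Myc, which with Max drives genes of ribosome production and growth, was the sole member whose highest dKO array was replicate 1. The gene lies on chromosome 15 of GRCm38.p6, from 61985341 to 61990361. Probe set 1424942_a_at read 1456, 1222, 1200 and 1142 units in dKO, against 680.2, 460.2, 698.7 and 563.7 units in controls. The dKO arrays lay close together, with a highest array 1.27 times the lowest, and each was at least 1.63 times the highest control. Myc averaged 1255 ± 138 units in dKO against 601 ± 111 units for controls (SD, n = 4 each) and rose by 1.08 (SE 0.14, limma adjusted p = 0.00346), and by 0.95 to 1.16 with 1 array left out, passing each time. For Myc, Ier3, Maff and Junb the authors' deposited table gives ratios of 1.99, 1.88, 2.10 and 2.20, and of these 4 Maff has the smallest unadjusted p there (0.000325). Of 13 genes of the Myc network Myc alone had a name. Of 19 Myc target genes 1 was named, Tfrc, the transferrin receptor, which rose by 0.76 (SE 0.18, limma adjusted p = 0.0481), a call that held in 1 of the 8 fits with 1 array left out, the one without control replicate 4 (limma adjusted p up to 0.145 in the others), and ended with quantile normalization and with 32 units added.

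**Figure D2:**
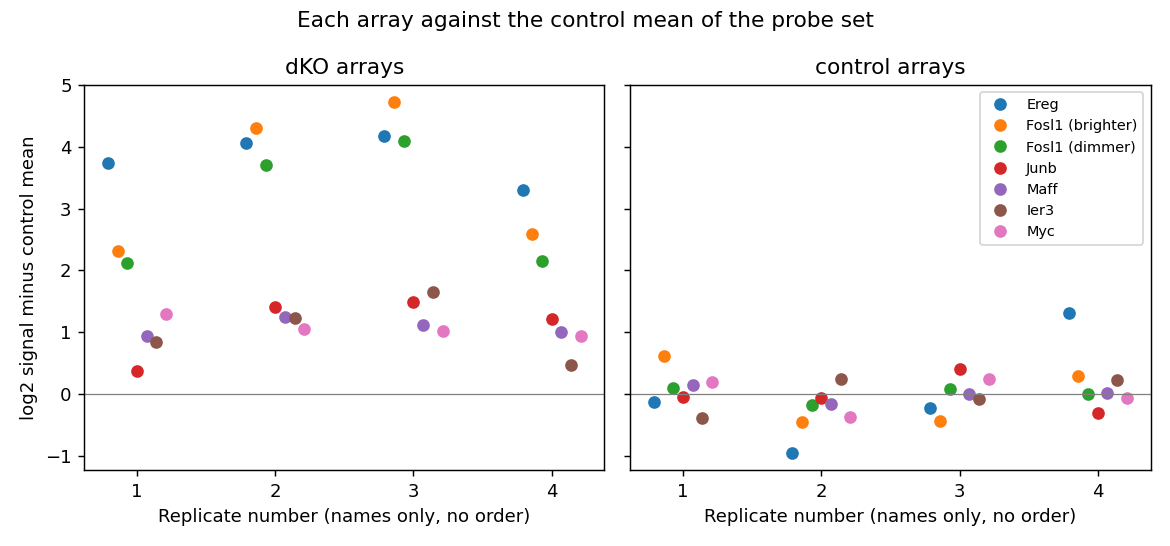
log2 signal of each array minus the control mean of the same probe set, for the 4 dKO arrays (left) and the 4 control arrays (right); colours are the 7 probe sets. Both Fosl1 probe sets stand higher in dKO replicates 2 and 3 than in dKO replicates 1 and 4, Myc lies between 1142 and 1456 units on all dKO arrays, and Ereg is highest among controls in replicate 4 (510 units).

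The members differed in how they varied among the dKO arrays. In 6 of the 7 probe sets, all but Myc, dKO replicates 2 and 3 were the 2 highest dKO arrays, an order noticed in the data. Over all tested probe sets this held for 13.7%, and over the 447 that passed as higher in dKO for 28.9%. It also held for 10 of the 22 other named genes of the lists, among them Areg, Hbegf, Dusp6, Bach1, Klf10 and Mcl1. Tgfa, Epgn, Nrg1, Errfi1, Krt6a, Krt16 and Sprr1b did not show it. The SD of the log2 signal within dKO was 1.21 and 1.03 for the Fosl1 probe sets, 0.511 for Junb and 0.512 for Ier3, against 0.137 for Maff, 0.153 for Myc and 0.389 for Ereg. Within controls Ereg had the largest, at 0.95, and the others lay between 0.123 and 0.534. The 3 prime to 5 prime log2 ratios of dKO replicates 1 to 4, averaged over Gapdh and Actb, were -0.039, 0.015, 0.035 and 0.054, and their part in this order was not tested.

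Further immediate early genes were described from the same list. Of its 29 genes 10 were named, 3 of them the members Junb, Ier3 and Myc. Of the 7 others 3 rose, 0 fell and 4 did not pass, against 20.0% of the table's probe sets with 1 symbol that rose. The median log2 difference of the 10 was 1.06. Ptgs2, which encodes the prostaglandin enzyme COX-2, read 149.7, 372.3, 353.8 and 104.7 units in dKO and 16.9, 3.7, 2.8 and 25.8 units in controls. It was dim in controls, and its difference of 4.70 (SE 0.69, limma adjusted p = 0.00536) was 2.53 with 32 added and 5.59 without both arrays numbered 4. Those arrays were its highest control and its lowest dKO array, so leaving them out had to enlarge the difference. The dimmer Ptgs2 probe set differed by 3.46 (limma adjusted p = 0.00299), 11.0-fold against 26.0-fold in the brighter one. Klf10, a TGF-beta-induced transcription factor, rose by 1.36 (SE 0.24, limma adjusted p = 0.0132), and Mcl1, which protects from apoptosis, by 0.72 (SE 0.16, limma adjusted p = 0.0377). Both calls were lost when dKO replicate 3 or any of control replicates 1, 2 and 3 was left out, and Mcl1 also lost its call with dKO replicate 2 left out (limma adjusted p up to 0.0563 for Klf10 and 0.124 for Mcl1). Quantile normalization and the replicate number as a block also ended the call of Mcl1 (limma adjusted p = 0.0572 and 0.0893). These fits are of its brighter probe set, and the dimmer Mcl1 probe set rose by 0.79 (SE 0.13, limma adjusted p = 0.0106).

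The remaining 4 did not pass. Ier2 differed by 0.77 (SE 0.20) and the transcription factor Klf6 by 0.96 in its brightest probe set (SE 0.25), with limma adjusted p of 0.0699 and 0.0697. Of the 3 dimmer probe sets of Klf6, 1 passed, at 1.17 (limma adjusted p = 0.0267). Nr4a1 and Ctgf are named after their values were seen. Nr4a1, a nuclear receptor, read 288.9, 2801, 2268 and 1322 units in dKO and 383.8, 149.6, 488.8 and 110.5 units in controls, so that the groups overlapped at dKO replicate 1, and it differed by 2.40 (SE 0.64, limma adjusted p = 0.0782). Without dKO replicate 1 the differences of Nr4a1, Klf6 and Ier2 passed, and the Nr4a1 value was 3.11. With each array centred on its median these 3 also passed (limma adjusted p = 0.0495 for Nr4a1, 0.0310 for Klf6 and 0.0322 for Ier2), and Ier2 passed without dKO replicate 4 (limma adjusted p = 0.0447). Ctgf, a matrix-associated growth regulator, differed by -0.84 (SE 0.24, limma adjusted p = 0.0957).

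**Figure D3:**
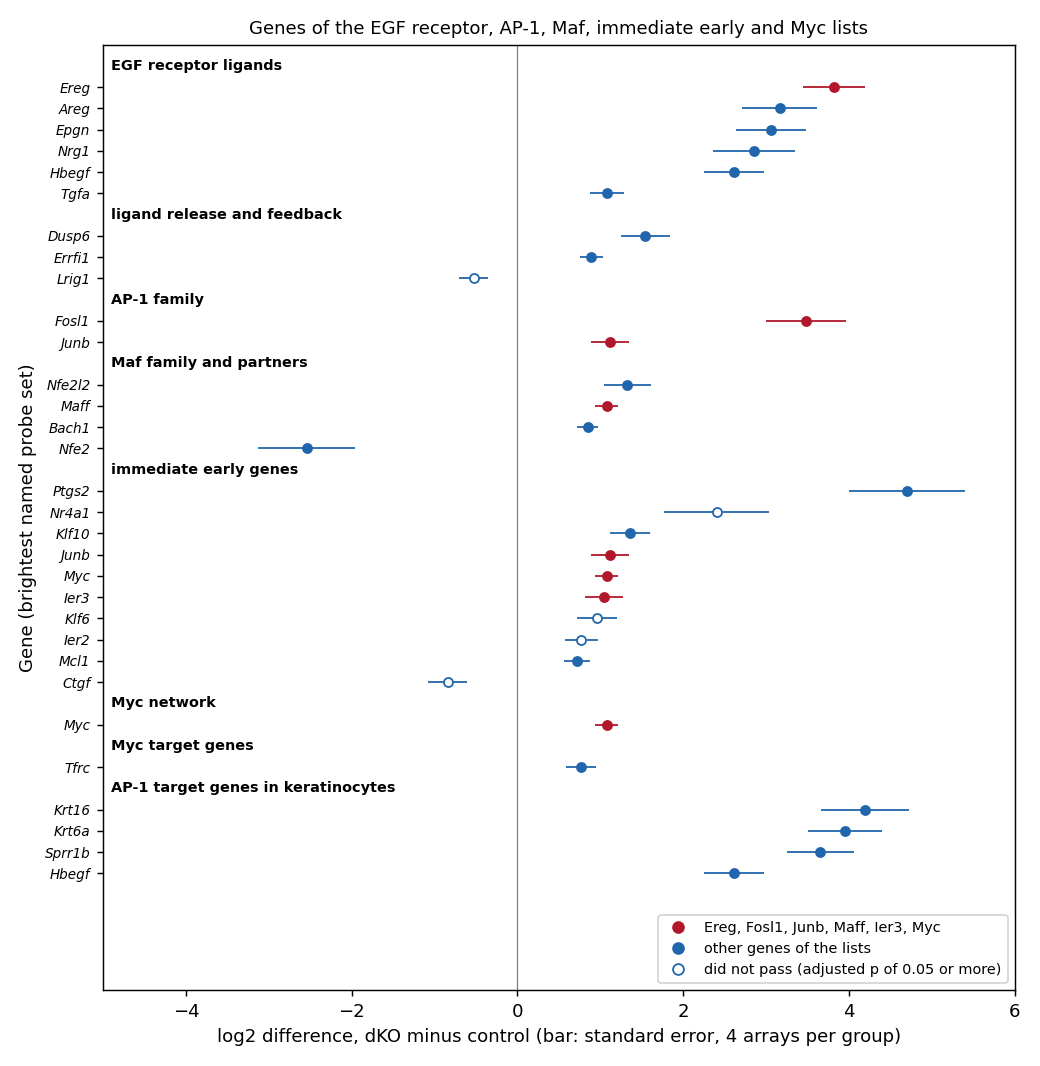
log2 difference, dKO minus control, of every named gene of the lists by its brightest probe set (points; bars are the standard error, 4 arrays per group); filled points passed, open ones did not, and red marks the 6 genes. The 6 named ligands of the EGF receptor family lie to the right of 0, and Nfe2 (-2.54), Ctgf (-0.84) and Lrig1 (-0.53) lie to its left.

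Genes that keratinocyte studies describe as AP-1 targets were named for 4 of 16, and 4 rose. Besides Hbegf these were the wound keratins Krt6a (3.96, SE 0.45) and Krt16 (4.19, SE 0.53) and the cornified envelope precursor Sprr1b (3.65, SE 0.41), with limma adjusted p of 0.00149, 0.00288 and 0.00136. All 4 passed without any single array. Without control replicate 4, which was high in them, Krt6a and Krt16 stood at 4.57 and 4.89, and without both arrays numbered 4 at 4.63 and 5.13. Both fits leave out the highest control, and the second also the lowest dKO array, so these differences had to grow. Over the pathway lists, cell type markers not counted, 28 of 130 genes were named, of which 22 rose, 1 fell and 5 did not pass, and without the 6 members 16 of 22 rose, with a median log2 difference of 1.34. Over all tested probe sets 2.25% passed in either direction, and over the probe sets of the authors' table with 1 symbol 41.7%. Of the named genes 23 passed with all arrays. That count was 14 with dKO replicate 3 left out, and 14, 14 and 15 with control replicate 1, 2 or 3 left out. All named genes had been selected on these arrays, so these counts are not independent evidence of direction.

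The genes with the profile most like each member were found by the mean absolute difference of log2 signals, each set against its own control mean, over the 8 arrays. Only named probe sets entered, and the selection favours genes that differed between the groups. Closest to Ereg were Chi3l1, a chitinase-like secreted protein, at 0.267, the dimmer Ptgs2 probe set at 0.282 and Krt6a at 0.428. Closest to Fosl1 were Defb6, a beta-defensin, at 0.386, Areg at 0.426 and the chemokine Cxcl1 at 0.453, and Ereg itself stood at 0.676. Junb was closest to Pdpn, podoplanin, at 0.15, to a dimmer probe set of Klf6 at 0.170 and to Acaa1b, a peroxisomal thiolase, at 0.182. Pdpn and that Klf6 probe set did not pass (limma adjusted p = 0.0583 and 0.0907). Acaa1b passed (limma adjusted p = 0.0422), but in only 1 of the 8 fits with 1 array left out. Ier3 was closest to Cdk5r1, Atp10a and the dimmest Igf1r probe set, at 0.168 to 0.187, none of which passed with the values as deposited. That Igf1r probe set read 125 to 175 units in dKO and 57.2 to 95.5 in controls, the opposite direction to the brightest.

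Maff and Myc lay near each other at 0.165, the smallest distance between any 2 members. Their nearest genes were in part shared. Axl, a receptor tyrosine kinase, was at 0.104 from Maff and 0.109 from Myc, and Ptk2b, a focal adhesion kinase relative, at 0.117 from each. The nearest to Maff was Depdc6, the mTOR inhibitor now called Deptor, at 0.100, and the third nearest to Myc was Sfrs7, a splicing factor, at 0.141. Axl, Depdc6, Ptk2b and Sfrs7 had log2 differences of 1.08, 1.11, 0.96 and 1.04, and these 4 passed without any single array.

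A marker of other cells had a name only if the authors' table listed it as differing on these arrays. The unnamed markers have no level here, and nothing is read from the counts. Over all tested probe sets 1.25% passed as lower in dKO and 0.993% as higher. Of the table's probe sets with 1 symbol 41.7% passed in either direction. Of 11 genes on the myeloid and Langerhans cell list, where Ptprc is not particular to these cells, 6 were named. Ptprc, Csf1r, Tyrobp, C1qc and Fcer1g fell and Emr1 did not pass, with a summed signal of 373 to 1197 in dKO and 1745 to 2632 in controls. The 5 calls were 2 without control replicate 1 or 3 and 3 without control replicate 2 or 4 or dKO replicate 1, 2 or 3, and without dKO replicate 4 all 6 fell. With 32 units added, quantile normalization, robust estimation or the replicate number as a block 3 fell, as C1qc and Fcer1g no longer passed. When limma's prior variance did not follow the intensity, 0 of the 6 fell. For T cells 2 of 5 were named, Cd3d and Cd3g, and both fell, with a summed signal of 17.1 to 40.3 in dKO and 131 to 229 in controls. Cd3d read only 2.9 to 5.4 units in dKO, and its log2 difference of -3.93 was -1.32 with 32 units added. Of the erythroid markers 1 of 3 was named, Alas2, which rose, at 128 to 372 in dKO and 14.7 to 64.2 in controls, and of the melanocyte markers 1 of 3, Tyrp1, which did not pass, at 629 to 1237 in dKO and 337 to 810 in controls. None of these markers read 0 on an array. The 6 fibroblast, 3 endothelial and 7 keratinocyte markers were unnamed, so the labelled tissue was not checked against keratinocyte markers. The part of these cells in the members' signals was not tested, and in such bulk samples fewer cells of a type and less RNA per cell cannot be told apart.

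The variance model decided most of the calls. When limma's prior variance did not follow the intensity, 1 of the 7 probe sets passed, Ereg (adjusted p = 0.0466), and Maff stood at 0.057, the Fosl1 probe sets at 0.0948 and 0.0784, Myc at 0.0909, Junb at 0.191 and Ier3 at 0.215 (limma adjusted p). Over all probe sets 60 passed in that fit. With each array centred on its median signal, which moved the median difference of all probe sets by 0.125, the members stood at 1.17 to 3.94 and 7 of 7 passed.

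**Figure D4:**
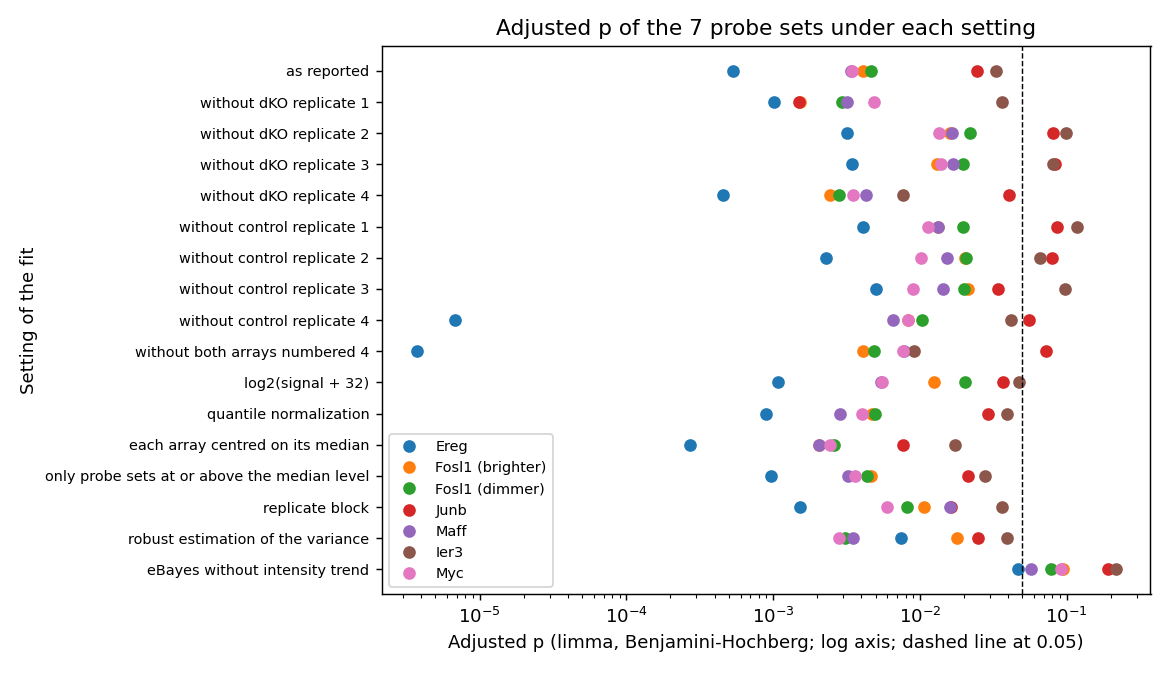
Adjusted p of each of the 7 probe sets (limma, Benjamini-Hochberg, log axis; dashed line at 0.05) under each setting of the fit, with the reported fit at the top. Junb and Ier3 cross the line in several fits that leave out 1 array, and in the fit without an intensity trend Ereg (0.0466) alone stays left of it.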

How the data were processed

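RNA of each epidermis sample was read on 1 array as biotin-labelled cRNA, per the labels' protocols. The deposited value table holds 1 linear signal intensity per probe set and array. MAS5 and Partek are named, without role or version, per the submitters' processing notes. All arrays had a 2% trimmed mean of 250.0, as checked on the values. The authors' deposited table of 2007 probe sets gives, per the file headers, a ratio of knockout to control, a signed fold change used here as a score only, an F score and an unadjusted p-value. How its ratios were normalized is not stated.

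From the 45101 probe sets, 5 that read 0 on an array and the 64 controls of the manufacturer were removed. The log2 signal of the other 45032 was compared with limma 3.58.1 in R 4.3.3 (eBayes with an intensity trend, genotype as the single term), and p-values were adjusted over all of them by the Benjamini-Hochberg method. "Rose" and "fell" mean an adjusted p under 0.05. Differences are log2 dKO minus control.

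The members, gene lists and alternatives were chosen with earlier results of these data known. A gene of a list was named where the authors' table gave a probe set its symbol alone, and was read by its brightest such probe set. The rule named all members, the genes of the pathway lists that passed, up to 2 per list that did not, the 3 nearest profiles per member, and Insr and Igf1r. Nr4a1 and Ctgf fall outside it and were chosen after their values were seen. The cell type markers are a list of their own, and all of its named genes are given. Motif letters and positions refer to RefSeq sequences of GRCm38.p6. The number of arrays limits the precision.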

Additional observations from a re-analysis of the deposited data

Results flagged for a closer look

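Among 58 groups of 4 arrays, from the members and the other named pathway genes, 2 held an array whose gap to the nearest of the other 3, as a share of the group's range of log2 signals, was over Dixon's critical value for 4 values, and chance alone sets an array apart in about 1 in 20 such groups. For Epgn this was control replicate 3, at 48.2 units, below the remaining controls at 86.1 to 93.1 units. For Errfi1 it was the same array, at 1690 units, above the remaining controls at 1264.5 to 1300 units. None of the 7 probe sets of Ereg, Fosl1, Junb, Maff, Ier3 and Myc held such an array. On signals in array units, a scale chosen after seeing the data, 4 groups did. The 2 added were control replicate 4 of Krt6a, at 3098 units against 475 to 715 in the remaining controls, and of Krt16, at 2633 units against 307.5 to 460 in the remaining controls.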

How the results depend on the processing

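No direction reversed among the 7 member probe sets under 16 alternatives. Among these, the fit without both arrays numbered 4 was chosen after the data had been seen. Of 112 values 95 kept their side of the threshold and 17 lost it, 6 of them in the fit without an intensity trend. For the other 22 pathway genes 277 of 350 values kept their side, 64 lost it, 9 gained it and 0 reversed. Without the intensity trend 1 member probe set and 60 probe sets in all passed, and of the pathway genes by their brightest probe sets 1 (Ereg). The T cell marker Cd3d, Axl and the dimmer Ptgs2 probe set also passed there. The cause was not tested. Leaving out 1 array gave 5 to 7 member probe sets, 14 to 23 pathway genes and 353 to 1417 probe sets in all, against 7, 23 and 1012 with all arrays. Without both arrays numbered 4, 6 member probe sets, 21 pathway genes and 1525 probe sets passed. Centring each array on its median turned the split of all calls to 607 higher and 322 lower, against 447 and 565, and gave 26 pathway genes. With the replicate number as a block, 7 member probe sets, 22 pathway genes and 698 probe sets passed. Deviations of same-numbered arrays correlated at r = -0.088 to 0.043 over probe sets. No dKO array correlated best with the control of its own number. Whether the numbers pair the samples is not stated in the labels and cannot be decided from these correlations. Dim signals limit the differences of Fosl1, Nrg1, Ptgs2, Nfe2, Nfe2l2 and Cd3d, whose size depends on readings near background.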
